A study of Mus musculus with 2 samples.

Results

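The 43 genes described here are expressed mainly in macrophages and other leukocytes, and they were followed in cultured osteoblastic cells of mouse embryos with 1 or no intact copy of Ebf2, the gene of a DNA-binding factor of the EBF family. They were chosen by name as genes of the macrophage and leukocyte lineages, on a list drawn up with earlier results of these data known, so the counts of lower members are a description. Every gene of the array table whose platform annotation gives 1 symbol and whose symbol was on the list was taken, which gave 43 of 18194 genes and 81 of 45101 probe sets. A probe set is a group of short oligonucleotides on the Affymetrix Mouse Genome 430 2.0 array that together report 1 transcript.

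RNA came from tibia and femur cells of C57Bl/6 embryos of stage E18.5 that carry lacZ at the Ebf2 locus. The heterozygous group, Ebf2+/-, and the knockout group, Ebf2-/-, both carry the marker, so Ebf2-lacZ cells of either genotype could be loaded with FDG, a substrate that fluoresces after cleavage by the lacZ product, and sorted. Per the labels the preparations were also grown in medium with 10% serum and not passaged, and whether the sort came before or after culture is not stated. Each genotype had 1 array; the labels name 3 mice per genotype, and pooling of their RNA is not stated. No wild-type array was analysed here, and no value below has a replicate check, so no p-value is given and each comparison describes 2 arrays. The lacZ sort marks cells in which the Ebf2 locus is active, and the labels state no depletion of blood cells.

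Macrophages are phagocytes of the myeloid lineage. Their growth and survival depend on signalling through the receptor Csf1r, and the transcription factor PU.1, product of Spi1, binds near many genes expressed in them. They take up antibody-coated particles through Fc receptors, which signal through small adaptors carrying an immunoreceptor tyrosine-based activation motif (ITAM), and digest what they take up with lysozyme and an oxidative burst. In bone, cells of this lineage also give rise to osteoclasts.

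In the Ebf2-/- cells 34 of the 40 measured members had at least 2-fold lower signal than in the Ebf2+/- cells, and 0 had at least 2-fold higher signal. The background over all measured genes was 3.46% for a 2-fold lower and 6.30% for a 2-fold higher signal, 408 and 742 genes; scaled to the spike-in transcripts it was 625 lower and 528 higher, with 35 of the 40 members at least 2-fold lower. The colony-stimulating factor receptor Csf1r read 1529 on the Ebf2+/- array and 405 on the Ebf2-/- array, the lysosomal glycoprotein gene Cd68 read 487 and 109, and the pan-leukocyte phosphatase Ptprc (CD45) read 205 and 27.5. Signals are the authors' MAS5 intensities on a linear scale, and each gene is represented by the brightest of its probe sets on average over both arrays. Measured means above a background floor on at least 1 array; the floor is the 95th percentile of 86 probe sets that report receptors of smell, taste and pheromones, 17.8 on the Ebf2+/- and 23.8 on the Ebf2-/- array. In these bulk preparations fewer macrophages or leukocytes and less RNA of these genes per cell cannot be told apart. Chondrocyte genes were lower as well, 5 of 6 measured by at least 2-fold, and 3 of 8 fibroblast and progenitor genes were at least 2-fold higher; the part of cell composition in the members' difference was not tested.

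All 40 measured members were above the floor on the Ebf2+/- array, where their signals ran from 24.2 to 5650 with a median of 190.5. On the Ebf2-/- array 29 of them were above the floor, and the median was 44.8. The 11 members above the floor in Ebf2+/- only have a bound, written "at least", computed against the Ebf2-/- floor. The median log2 ratio of Ebf2-/- over Ebf2+/- was -1.82 over the 40 members, with those 11 at their bound, and -1.99 over the 29 members above both floors. The median over all 11785 measured genes was 0.03. Of the 29 members above both floors 26 were at least 2-fold lower, against 3.02% of all genes above both floors. At least 4-fold lower were 15 of the 40 members, against 0.492% of measured genes. Cd86, a co-stimulatory ligand, Clec7a, a receptor for fungal glucans, and Tlr7, a sensor of single-stranded RNA, were not above the floor on either array by their brightest probe set; a second Tlr7 probe set read 29.2 and 4.65, at least 1.23-fold lower.

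**Figure D1:**
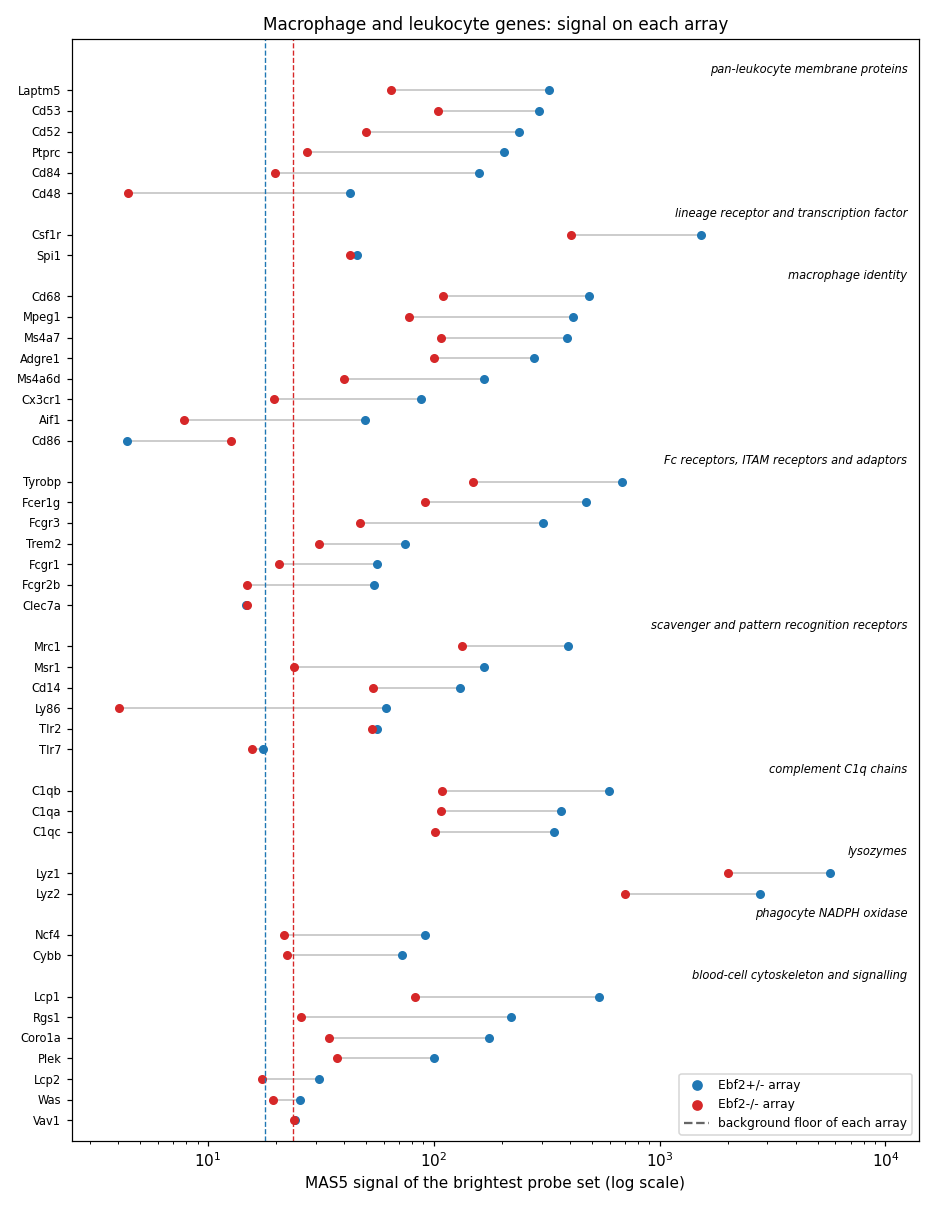
MAS5 signal of each of the 43 members on the Ebf2+/- array (blue) and the Ebf2-/- array (red), on a log axis, grouped by role; dashed lines mark the floor of each array, 17.8 and 23.8. In nearly every role the red point lies well to the left of the blue one; the points of Spi1, Tlr2 and Vav1 nearly coincide, and 14 members are under the floor in Ebf2-/-.

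The bases before the start of some members are shown here because the lysozyme genes are near copies of each other, and because the other members shown hold letters that PU.1 and its relatives of the ETS family are known to recognise. The sequences are from RefSeq (GRCm38.p6), 5′ to 3′ on the gene's strand, and end at the base before the annotated start. Capitals mark the motifs searched, GAGGAA and AGGAAGT, on either strand. The reverse complements read TTCCTC and ACTTCCT. The motifs overlap where the letters run on as GAGGAAGT, and in the Fcgr1 window they share a base without forming it. The lysozyme windows are chr10:117292869-117293068 and chr10:117282273-117282472, both on the minus strand.
Lyz1: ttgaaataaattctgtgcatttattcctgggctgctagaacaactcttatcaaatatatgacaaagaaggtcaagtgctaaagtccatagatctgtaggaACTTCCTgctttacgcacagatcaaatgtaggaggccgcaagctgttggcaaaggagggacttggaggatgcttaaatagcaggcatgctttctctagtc
Lyz2: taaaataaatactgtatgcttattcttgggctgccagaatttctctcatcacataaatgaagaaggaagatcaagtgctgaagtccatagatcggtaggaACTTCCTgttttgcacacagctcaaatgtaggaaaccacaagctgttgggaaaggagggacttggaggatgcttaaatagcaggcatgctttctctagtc
In a global alignment these windows of 200 bases were identical at 172 of 201 positions, 85.6%, and both hold AGGAAGT on the opposite strand with its first base 100 bases before the start. The members at least 2-fold lower that hold both motifs in the same 200 bases were Ptprc (chr1:138175306-138175505), Fcgr1 (chr3:96293970-96294169), C1qb (chr4:136886201-136886400) and C1qc (chr4:136892915-136893114), all on the minus strand.
Ptprc: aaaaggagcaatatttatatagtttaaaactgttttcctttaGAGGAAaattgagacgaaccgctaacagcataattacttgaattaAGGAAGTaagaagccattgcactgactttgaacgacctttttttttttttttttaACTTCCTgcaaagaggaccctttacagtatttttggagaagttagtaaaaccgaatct
Fcgr1: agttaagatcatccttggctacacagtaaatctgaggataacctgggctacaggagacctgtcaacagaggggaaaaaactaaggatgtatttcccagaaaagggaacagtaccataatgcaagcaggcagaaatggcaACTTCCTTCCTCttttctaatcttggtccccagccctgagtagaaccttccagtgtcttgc
C1qb: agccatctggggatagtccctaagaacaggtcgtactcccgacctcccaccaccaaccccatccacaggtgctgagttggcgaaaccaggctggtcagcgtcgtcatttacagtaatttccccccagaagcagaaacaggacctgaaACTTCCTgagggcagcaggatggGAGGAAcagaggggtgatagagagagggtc
C1qc: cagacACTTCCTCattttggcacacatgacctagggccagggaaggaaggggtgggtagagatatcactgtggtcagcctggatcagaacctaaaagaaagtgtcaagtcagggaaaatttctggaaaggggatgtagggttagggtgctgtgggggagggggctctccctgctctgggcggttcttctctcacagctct
Over the 250 bases before the start, 30 members had an entry, with 36 windows because some have several starts. GAGGAA was found in 16 of those 36 windows (44.4%) and in 23.3% of all 32851 windows, and AGGAAGT in 10 windows (27.8%) and in 7.69% of all windows. The joined form GAGGAAGT was in 2 member windows, those of C1qc and Vav1, and in 2.44% of all windows. These are matches of letters, and binding was not measured here. Fcer1g and Mpeg1, without either motif in the 250 bases, were 5.16-fold and 5.34-fold lower. Vav1, which holds both motifs within the last 11 bases, read 24.2 and 23.9, too near the floor for a 2-fold lower value. A link between these letters and the members' difference was not tested.

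The lineage receptor and the lineage transcription factor differed in what they showed. Csf1r was 3.78-fold lower by its brightest probe set, 4.02-fold lower by the next (596 against 148) and 2.13-fold lower by the last (196 against 92.1), so all 3 probe sets lay below the Ebf2+/- value. Spi1 was dim and nearly equal, 45.5 in Ebf2+/- and 42.3 in Ebf2-/-, a log2 ratio of -0.10 from its single probe set. Below 47.6 on the Ebf2+/- array the Ebf2-/- floor allows no 2-fold lower value, so Spi1 could not have reached one. The spread available within the arrays is that of log2 ratios between probe sets of 1 gene, with 4119 genes giving a pooled SD of 0.44, or 1.36-fold. The Spi1 difference is smaller than that SD and the Csf1r differences are larger. Over the 5 members with several probe sets above both floors the pooled SD was 0.93. The smallest Csf1r difference, a log2 ratio of -1.09, is close to that value. Both spreads compare probe sets on the same 2 arrays. They leave out variation between animals and cultures, so neither is an error of the genotype difference.

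Pan-leukocyte membrane proteins were lower, 5 of 6 by at least 2-fold. Ptprc was 7.45-fold lower, with the Ebf2-/- signal of 27.5 just above the floor. Cd52, a small glycosylphosphatidylinositol-anchored glycoprotein, read 238 and 49.9, 4.76-fold lower, and the tetraspanin Cd53 read 293 and 105, 2.80-fold lower. Cd84, a receptor of the SLAM family, read 158 and 19.8; the latter is under the floor, so the difference is at least 6.63-fold. Its relative Cd48 read 42.7 and 4.43, which allows only "at least 1.79-fold lower", and it is the member of the group that does not reach 2-fold. The lysosomal membrane protein gene Laptm5 read 324 and 64.4, 5.03-fold lower, and 3.24-fold lower by a second probe set (145 against 44.6). Its dimmer probe sets read 40.9 and 36.1, and 21.3 and 26.8, so the size for Laptm5 depends on the probe set.

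Genes that mark macrophages were at least 2-fold lower in 7 of 7 measured cases. Mpeg1, the pore-forming protein of the phagosome, had 415 and 77.7, 5.34-fold lower. Cd68 was 4.45-fold lower, Ms4a6d 4.18-fold (167 against 39.9) and Ms4a7 3.64-fold (391 against 107), the last 2 being four-pass membrane proteins of the MS4A family. Adgre1, the surface antigen by which mouse macrophages are commonly identified, had 277 and 100.4 and the smallest ratio among those of this group above both floors, 2.75-fold. The fractalkine receptor Cx3cr1 (87.4 against 19.7) and the calcium-binding protein gene Aif1 (49.6 against 7.80) were under the Ebf2-/- floor, at least 3.67-fold and at least 2.08-fold lower. With the mean over probe sets Ms4a7 and Cx3cr1 had log2 ratios of -0.72 and -0.73, short of 2-fold. Each has 1 measured probe set, and that mean takes in another under both floors. Such a probe set enters at the log2 ratio of the floors, 0.42. Aif1 did not reach 2-fold with the 99th percentile as floor, at -0.62. With a pseudocount of 50 in place of the floor Cx3cr1 and Aif1 fell short as well, at -0.98 and -0.78. A second probe set of Ms4a6d read 104 and 7.23, at least 4.36-fold lower.

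Fc receptors and ITAM partners were at least 2-fold lower in 6 of 6 measured cases. Of the adaptors, Tyrobp (DAP12) had 680 and 150, 4.54-fold lower, and Fcer1g, the common gamma chain of Fc receptors, had 469.7 and 91.1, 5.16-fold lower. The low-affinity IgG receptor Fcgr3 had 306 and 47.2, a 6.48-fold difference. The lipid-sensing receptor Trem2, which signals through Tyrobp, had 74.9 and 30.9, 2.42-fold lower. The high-affinity IgG receptor Fcgr1 had 55.9 and 20.7, at least 2.35-fold lower, and at least 1.42-fold by a dimmer probe set. The inhibitory IgG receptor Fcgr2b had probe sets that disagreed. Its brightest read 54.3 and 15.0, at least 2.28-fold lower, whereas another read 17.7 and 41.1, at least 2.31-fold higher. The mean over all 5 of its probe sets gave a log2 ratio of 0.17. That mean takes in probe sets under both floors, each entering at the log2 ratio of the floors, 0.42. It is counted as lower by its brightest probe set, and no direction is given for the gene. Trem2 did not reach 2-fold with the mean over probe sets, at a log2 ratio of -0.43, and Fcgr1 did not with that mean (-0.87) or with the 99th percentile as floor (-0.79).

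Scavenger and pattern recognition receptors were lower in 4 of 5 measured cases by at least 2-fold. The mannose receptor Mrc1 had 394 and 133, 2.96-fold lower, and the lipopolysaccharide co-receptor Cd14 had 131 and 53.9, 2.43-fold lower. The class A scavenger receptor Msr1 was 6.89-fold lower by its brightest probe set (166 against 24.1, just above the floor) and 2.54-fold lower by another (86.9 against 34.2). Ly86 (MD-1), which pairs with a Toll-like receptor homologue, had 61.5 and 4.03, at least 2.58-fold lower. Tlr2, a receptor for bacterial lipoproteins, was nearly equal on the arrays at 56.0 and 53.1. Neither Cd14 nor Tlr2 expression is limited to leukocytes.

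The 3 chains of complement C1q, which macrophages secrete, were lower together. C1qb had 595 and 109, 5.46-fold lower, and its other probe sets gave 5.16-fold (558 against 108) and 1.98-fold (314 against 158). C1qa had 366 and 108 and C1qc 340.2 and 101, 3.41-fold and 3.37-fold lower. The Ebf2-/- signals of the 3 chains lay between 101 and 109.

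The signals assigned to both lysozyme genes were lower. Lyz1 read 5650 in Ebf2+/- and 2001 in Ebf2-/-, 2.82-fold lower, and 4.70-fold lower by a second probe set (1448 against 308); both are annotated by the suffix _x_at, which marks probes that can cross-hybridise with related transcripts. Lyz2, the lysozyme of macrophages and other myeloid cells, read 2780.1 and 702, 3.96-fold lower. Signals of the pair are not independent, and a Lyz1 probe set without that suffix read below the floor on both arrays, 16.5 and 2.69. Lyz1 is counted as lower by its brightest probe set, and no direction is given for Lyz1 apart from Lyz2.

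The membrane subunit of the phagocyte NADPH oxidase, Cybb, read 72.2 and 22.4, and the cytosolic subunit gene Ncf4 read 91.7 and 21.6. Both were under the Ebf2-/- floor, at least 3.03-fold and at least 3.85-fold lower. A second measured Cybb probe set read 25.0 and 0.954, at least 1.05-fold lower. With the mean over all its probe sets the log2 ratio of Cybb was -0.42. That mean takes in another probe set under both floors, which enters at 0.42. Of the other subunits of the oxidase, Ncf1 had 105 and 27.3, 3.84-fold lower by its brightest probe set with another probe set opposed, and Rac2 had 46.2 and 19.0, at least 1.94-fold lower. Cyba, which partners NADPH oxidases of many cell types as well, read 996 and 1043. One of these 3 was at least 2-fold lower.

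Of the genes for cytoskeletal and signalling proteins of blood cells, 4 of 7 measured were at least 2-fold lower. The actin-bundling protein gene Lcp1 (L-plastin) had 537 and 82.9, 6.47-fold lower, and the actin regulator Coro1a had 176 and 34.5, 5.11-fold lower. Rgs1, a brake on chemokine receptor signalling, had 219 and 25.9, 8.47-fold lower, with the Ebf2-/- signal just above the floor. The protein kinase C substrate Plek had 99.8 and 37.4, 2.67-fold lower. The adaptor Lcp2 (30.9 against 17.3), the actin nucleation regulator Was (25.6 against 19.3) and the exchange factor Vav1 (24.2 against 23.9) were dim in Ebf2+/- already, and their ratios of at least 1.30, at least 1.07 and 1.01 carry little information this close to the floor.

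Sorted by Ebf2+/- signal, every member above 100 was at least 2-fold lower. Of the 15 members over 300, 15 were at least 2-fold lower, against 2.69% of all genes this bright, and their ratios ran from 2.82-fold to 6.48-fold. Of the 10 members between 100 and 300, 10 were at least 2-fold lower, against 4.64% of genes in this range, from 2.43-fold to 8.47-fold. Of the 15 members between the floor and 100, 9 were at least 2-fold lower, against 3.52% of genes in this range. A gene below 47.6 on the Ebf2+/- array could not reach 2-fold lower, since values under the Ebf2-/- floor were set to it; this held for Cd48, Spi1, Lcp2, Was and Vav1, whereas Tlr2 could have reached it. The bins rest on the Ebf2+/- signal, and 10 of the 15 dim members were above the floor in Ebf2+/- only and so had to be lower; these counts are a description.

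**Figure D2:**
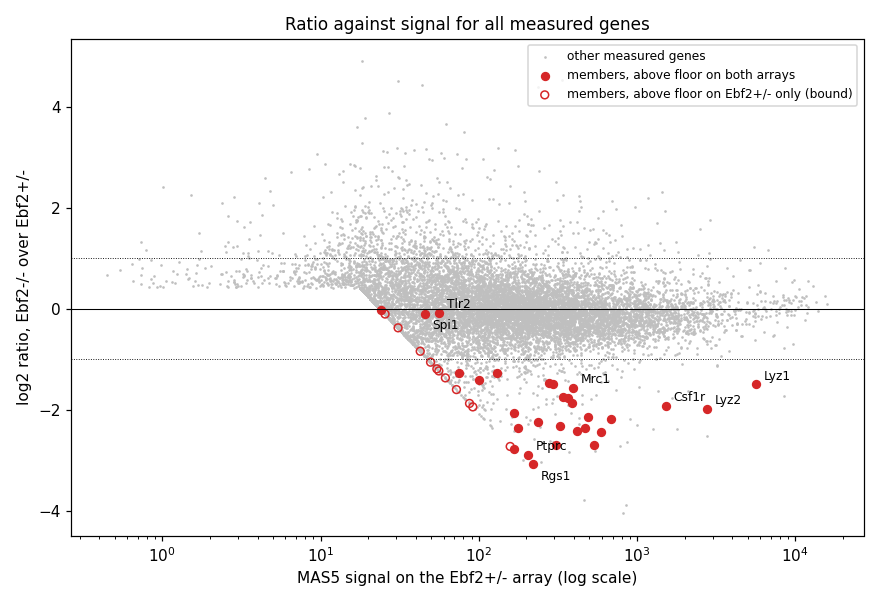
Log2 ratio of Ebf2-/- over Ebf2+/- (vertical axis) against the Ebf2+/- MAS5 signal (log axis) for all measured genes, with the 40 measured members in red; open circles are bounds and dotted lines mark 2-fold. Members brighter than 100 all lie between -1.28 and -3.08, whereas the cloud of other genes is centred near 0; the oblique lower edge at left is set by the floor.

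Single probe sets gave the same picture with more spread. Of the 81 member probe sets 60 were above the floor on at least 1 array, and 44 of these were at least 2-fold lower, against 3.61% of all such probe sets with 1 symbol. One was at least 2-fold higher, that of Fcgr2b. Of the 38 probe sets above the floor on both arrays 37 had the lower signal in Ebf2-/-, the exception being the dim Laptm5 probe set, and their median log2 ratio was -1.89. Several measured probe sets were available for 12 members, and in 10 of these all were lower in Ebf2-/-. The members with several probe sets above both floors were 5, and their log2 ratios had a pooled SD of 0.93 between probe sets, wider than over all genes.

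**Figure D3:**
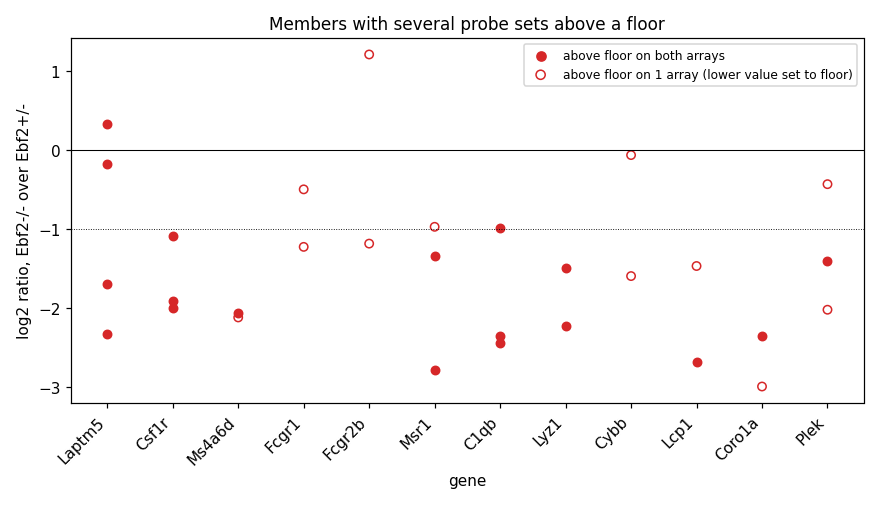
Log2 ratio of Ebf2-/- over Ebf2+/- of each probe set above a floor, for the 12 members with several; filled circles are above the floor on both arrays and open circles on 1 array, with the lower value set to the floor, and 1 Fcgr2b probe set without a fold is not drawn. The 3 Csf1r probe sets and the pair for Ms4a6d, Lyz1 and Coro1a all lie below -1, whereas Laptm5 and Fcgr2b have points on either side of 0.

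Genes of the same lineages outside the member list were compared in fixed lists. Of the leukocyte integrins and their partners, 3 of 5 measured genes were at least 2-fold lower: the beta-2 integrin chain Itgb2 had 226 and 26.4, 8.56-fold lower, the integrin activator Fermt3 had 170.3 and 9.85, at least 7.15-fold, and Itga4 had 47.65 and 19.5, at least 2.00-fold. Of the 4 measured Fermt3 probe sets 1 was higher. With the 99th percentile as floor or the mean over probe sets 2 of these genes reached 2-fold, and 1 did among genes above both floors. The alpha chains Itgam and Itgax were not above the floor on either array. Among 14 other measured myeloid signalling genes, 6 had an at least 2-fold lower and 0 an at least 2-fold higher signal. The lower ones included the C-type lectin Clec4d (227 against 47.3, 4.79-fold), Evi2a (4.41-fold) and the adaptor Fyb (3.98-fold).

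Other lists of the lineage were mixed. Among 12 other measured tissue macrophage genes, 4 had an at least 2-fold lower signal and 1 an at least 2-fold higher one. Pf4, a chemokine of platelets and macrophages, had 785.5 and 119, 6.63-fold lower, and the chemokine Ccl3 had 108 and 9.84, at least 4.51-fold lower, while the chemokine Ccl9 had 260.2 and 99.8, 2.61-fold lower. The higher gene was Apoe, an apolipoprotein also made by other cells, with 176 and 352. The haemoglobin scavenger receptor Cd163, Timd4, Vsig4, Siglec1 and Lyve1, which are markers of resident macrophages of several organs, were not above the floor on either array. Others of this list were measured. Cbr2 (316 against 201), Stab1 (83.7 against 52.3) and Mertk (68.8 against 54.1) were within 2-fold. Folr2 (30.7 against 6.99) and Marco (26.7 against 5.46) were above the floor in Ebf2+/- only. Of 9 measured myeloid transcription factors 0 were at least 2-fold lower and 1, Nr1h3, was at least 2.35-fold higher (17.6 against 41.9). Irf8, Ikzf1, Irf5, Batf3 and Nr1h3 read below 47.6 on the Ebf2+/- array, where the Ebf2-/- floor allows no 2-fold lower value. Maf had 653 and 335 by its brightest probe set, and Cebpb had 388 and 679. Of the 5 measured Maf probe sets 3 were lower and 2 higher. Of the CSF genes, the receptor subunits Csf2rb (62.3 against 10.1, at least 2.62-fold) and Csf2ra (126 against 62.5, 2.01-fold) were lower, and the ligand of Csf1r, Csf1, was 2.16-fold higher (658 against 1421) with all 4 probe sets higher.

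Of 10 measured lysosomal genes 3 were at least 2-fold lower. The protease Ctss, which is most abundant in antigen-presenting cells, had 859 and 137, 6.25-fold lower, Ctsc had 589.97 and 216, 2.74-fold lower with another probe set opposed, and Lgmn had 494 and 191, 2.58-fold lower. The other 7 measured, among them Ctsl (3151 against 3145) and Lamp1 (3347 against 3696), which most cells express, were within 2-fold. Genes of MHC class II were dim: 3 of 6 were above a floor, 0 were at least 2-fold lower, and Cd74 had 40.4 and 16.8. All 3 read below 47.6 on the Ebf2+/- array, where the Ebf2-/- floor allows no 2-fold lower value, so that 0 is set by the floor. H2-DMa, the only one above both floors, had 42.1 and 62.4, 1.48-fold higher.

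Few markers of other blood cells were above a floor. Of 7 B cell genes 0 were measured, and of 11 granulocyte genes 2 were, Elane at 23.1 and 4.72 and Lcn2 at 2.60 and 63.5; Lcn2 is also made by stromal cells. Of 9 T and NK cell genes only Zap70 was measured (12.96 against 42.8), of 6 dendritic cell genes only Zbtb46 (19.2 against 23.5), of 7 mast cell and basophil genes Ms4a2 (21.6 against 1.78) and Mcpt8 (21.0 against 11.2), and of 6 erythroid genes only Epor (26.5 against 4.02). Of 5 megakaryocyte genes 4 were measured, all within 2-fold, among them the platelet glycoprotein gene Gp1bb (83.1 against 70.2) and the integrin chain Itga2b (24.8 against 43.4). Of 8 endothelial genes 3 were measured, with Tek at least 2.61-fold higher (3.53 against 46.5). Of 10 osteoclast genes 3 were measured: Ctsk read 858 and 699.96, Nfatc1 101 and 42.7 by its brightest probe set, and Itgb3 25.3 and 44.8. Of the 4 measured Nfatc1 probe sets 2 were lower and 2 higher, and with the mean over probe sets or a pseudocount of 50 in place of the floor 0 osteoclast genes were at least 2-fold lower. Acp5, Calcr, Dcstamp, Ocstamp, Oscar and Mmp9, which define mature osteoclasts, were not above the floor on either array.

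**Figure D4:**
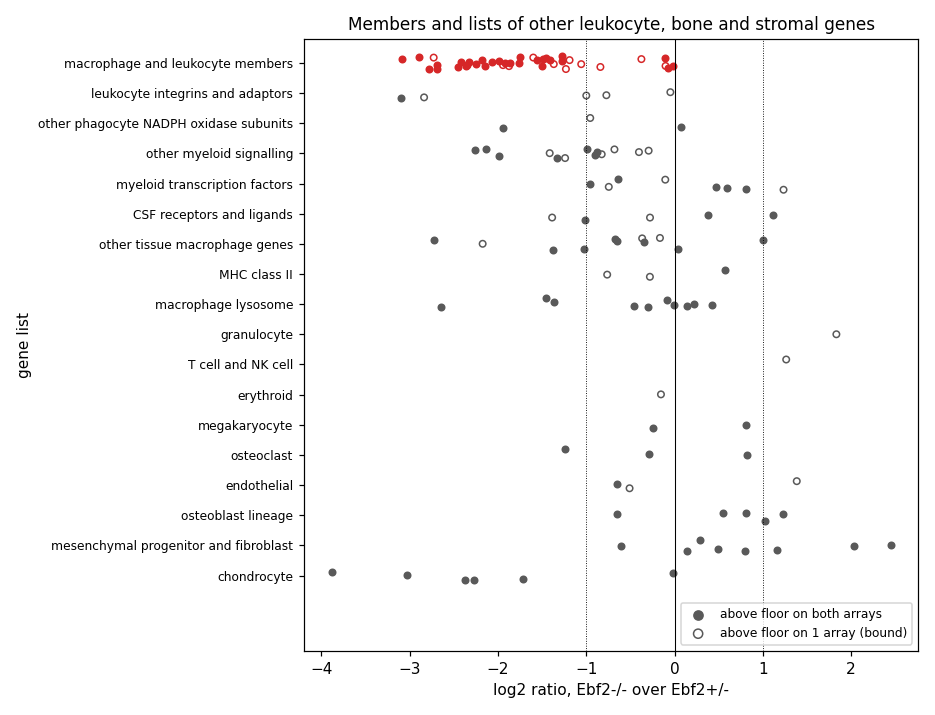
Log2 ratio of Ebf2-/- over Ebf2+/- of each gene with a fold, for the members (red) and the other lists (grey); open circles are bounds, dotted lines mark 2-fold and vertical scatter only separates points. The members lie to the left of 0, with a median of -1.82, and 5 of the 6 chondrocyte genes lie beyond 2-fold on that side, while fibroblast and osteoblast genes lie mostly to the right.

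The labelled cell type was checked against its markers. Col1a1 (5478 and 12784), Col1a2 (8597 and 15008) and Sparc (12049 and 17570) were abundant on both arrays, Sp7 (83.7 and 53.3) and Alpl (25.4 and 51.8) were dim, and Ibsp, Dmp1 and Phex, markers of mineralizing osteoblasts and osteocytes, were not above the floor. Of the measured osteoblast genes 2 of 5 were at least 2-fold higher by their brightest probe set, Col1a1 and Alpl. Of the 2 measured Col1a1 probe sets 1 was lower, and Alpl was close to the floor in Ebf2+/-. The progenitor genes Pdgfra (158 against 860.2) and Thy1 (970.3 against 3957) were also at least 2-fold higher. Chondrocyte genes summed to 12084 in Ebf2+/- and 3332 in Ebf2-/-, and Col9a3 was 14.8-fold lower. The control 3′ over 5′ signal ratio, a sign of RNA integrity, was 1.97 and 2.79 for beta-actin and 1.30 and 1.60 for Gapdh, in Ebf2+/- and Ebf2-/-. The part of RNA integrity in the members' difference was not tested. Ebf2 itself was near background: its 3 probe sets read 24.9 and 20.6, 14.4 and 25.1, and 13.7 and 14.4, which checks neither label.

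The measured members were 40 of all 11785 measured genes. Of the 408 genes at least 2-fold lower on the Ebf2-/- array 34 were members, 8.33% of those genes. They were 85.0% of the 40 measured members. A further 19 of the 408 were on the other macrophage and leukocyte lists, and 355 were neither members nor on those lists. Of the 58 genes at least 4-fold lower 15 were members (25.9%), 7 more were on those lists and 36 were neither.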

How the data were processed

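The authors deposited MAS5 signals, a linear intensity per probe set; per the submitters' processing notes the tool was MAS5, and no version is listed there. Both arrays had been scaled alike by the authors: without the lowest and highest 2% of values the mean was 99.97 on each. Gene symbols came from the platform annotation (34958 probe sets with 1 symbol, 932 with several, 9211 not listed). Each gene was represented by its brightest probe set (mean log2 over both arrays); values under the floor were set to it before the log2 ratio, and no fold is given where the measured signal did not exceed the other array's floor. The 18 spike-in probe sets differed by 0.18 ± 0.15 on the log2 scale (SD, n = 18 probe sets), higher in Ebf2-/-. With 1 array per genotype no test was possible and the number of arrays limits the precision. Alternatives changed the floor, the pseudocount, the scaling and the choice of probe sets. The ratios were tested on simulated data (python 3.11.15, pandas 2.3.3). The genes changed there were bright and above both floors, with all probe sets of a gene shifted alike. The simulation therefore does not cover dim members, bounds or probe sets that disagree. Members and lists were chosen with earlier results of these data known. All members were named; of each other list, the measured genes with the largest ratios, and others after their values were seen.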

Additional observations from a re-analysis of the deposited data

How the results depend on the processing

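The number of members at least 2-fold lower ranged from 25 with a pseudocount of 50 to 35 without a floor, with the array median as floor or with spike-in scaling; averaging over probe sets gave 26. In each alternative run 0 members were at least 2-fold higher. Their median log2 ratio, -1.82, was -1.32 with the pseudocount and -1.26 with the mean over probe sets, and lay between -1.66 and -2.03 otherwise. Of the 34 members at least 2-fold lower, 21 stayed so in every alternative that gave them a value. The other 13 were Aif1, Cd14, Cd53, Cx3cr1, Cybb, Fcgr1, Fcgr2b, Laptm5, Ly86, Ms4a7, Ncf4, Plek and Trem2. Fcgr2b went to 0.17 with the mean over probe sets. That mean takes in probe sets under both floors, which enter at the log2 ratio of the floors, 0.42. Members that have such probe sets are pulled toward that value. The count of 26 and the median of -1.26 with that mean include this shift. Under quantile, lowess and spike-in scaling all 40 measured members kept the lower signal in Ebf2-/-; with the 99th percentile as floor Lcp2, Vav1 and Was did not. Without a floor 7.91% of all measured genes were at least 2-fold lower and 932 genes in all, against 408; with the pseudocount 134 were, and with the mean over probe sets 241. Spike-in scaling shifted the median of all genes to -0.14, with 625 lower and 528 higher genes. The number of members above a floor in Ebf2-/- has no value without a floor, with the pseudocount or with genes above both floors only. No paired analysis was possible because each genotype had 1 array.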
